A study of Mus musculus with 12 samples.

Results

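The effect of sodium lactate on T cell activation was read across all measured gene classes in mouse CD8+ T cells. Stimulation lasted 72 h, and 4 libraries of cells that received 40 mM of the salt (lactate) were set against 4 libraries of cells kept in plain media, which the titles call vehicle (media). The members are therefore every gene of the count table that could be tested, 13767 of 13780. Of these, 1917 genes rose with lactate (13.9% of those tested) and 1534 fell (11.1%). In the machinery of cell growth, 98 of 113 ribosome biogenesis factors, 33 of 40 proteasome subunits and 51 of 77 mitochondrial ribosomal proteins were higher, and none of these 3 lists had a member that fell. Among genes that fell were components of the T cell receptor pathway (17 of 47 members), genes of naïve and quiescent T cells (13 of 46) and genes of sterol synthesis (8 of 31).

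Lactate is the end product of glycolysis, is exported and imported through monocarboxylate transporters together with a proton, and can be oxidised back to pyruvate. A resting CD8+ T cell is small and translates little. When its antigen receptor is engaged it grows before it divides, and the transcription factor MYC drives much of that growth by raising the genes for ribosome assembly, nucleotide and polyamine synthesis and mitochondrial biogenesis, while factors such as FOXO1 and KLF2 keep the resting programme on.

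The cells came from spleens of wild-type C57BL/6J mice and were isolated with positive-selection beads against CD8. Both activated groups received anti-CD3/CD28 beads and 10 U/ml of IL-2, and the third group, 4 libraries of naïve cells taken without activation, entered the model to share the estimate of spread. The control was plain media and not an equal amount of sodium chloride, so the lactate anion, the added sodium and the higher osmolarity cannot be told apart. The p-values measure the spread between these samples of primary cells from a few donors, and in bulk RNA fewer cells of a type and less RNA per cell cannot be told apart. Values are CPM, counts relative to the library total scaled by TMM factors, differences are log2 fold changes of lactate against media with their SE, and "rose" and "fell" mean a Benjamini-Hochberg adjusted p of at most 0.01 from edgeR's quasi-likelihood test (n = 4 against 4). A gene is said not to overlap when all 4 values of a group lay above all 4 of the other; 3200 genes (23.2%) did not overlap with lactate higher and 2956 (21.5%) with lactate lower.

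The libraries held 14726904 to 21478137 counts. By the library numbers in their labels, media replicates 1 to 3 and lactate replicates 1 and 2 belonged to a low run, and media replicate 4 and lactate replicates 3 and 4 to a high run. The CD8 T cell list, 9 genes, summed to 4187 to 5083 CPM in media and 3155 to 3781 CPM in lactate; 4 members fell, and Cd8a itself did not pass the test (916 ± 106 CPM in media and 824 ± 72.9 CPM in lactate; log2 fold change -0.15 ± 0.25 (SE), adjusted p = 0.672). B cell markers summed to 442 to 718 CPM in media and 254 to 339 CPM in lactate, 5 of 14 members fell and none rose. Myeloid and dendritic cell markers summed to 72.6 to 95.3 CPM in media and 97.1 to 109 CPM in lactate, with Fcgr1, Xcr1, Siglech, S100a8, S100a9 and Csf3r at 0 in both activated groups, and red cell and platelet markers to 3.61 to 4.69 CPM in media and 2.26 to 8.10 CPM in lactate; no member of either list passed the test. CD4 and regulatory T cell markers summed to 648 to 1001 CPM in media and 519 to 716 CPM in lactate, with 2 of 8 higher and 1 lower, and markers of NK, innate and γδ T cells to 99.2 to 126 CPM in media and 85.5 to 109 CPM in lactate, with 2 of 12 higher. The fall of the B cell list moved with the naïve and receptor genes described later, and its part in those results was not tested. Media replicate 2 was the farthest of its group for many growth genes, and without it the count of genes that rose was 1338 and of those that fell 914. The count that fell was 979 without lactate replicate 3 and 1004 without lactate replicate 4.

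**Figure D1:**
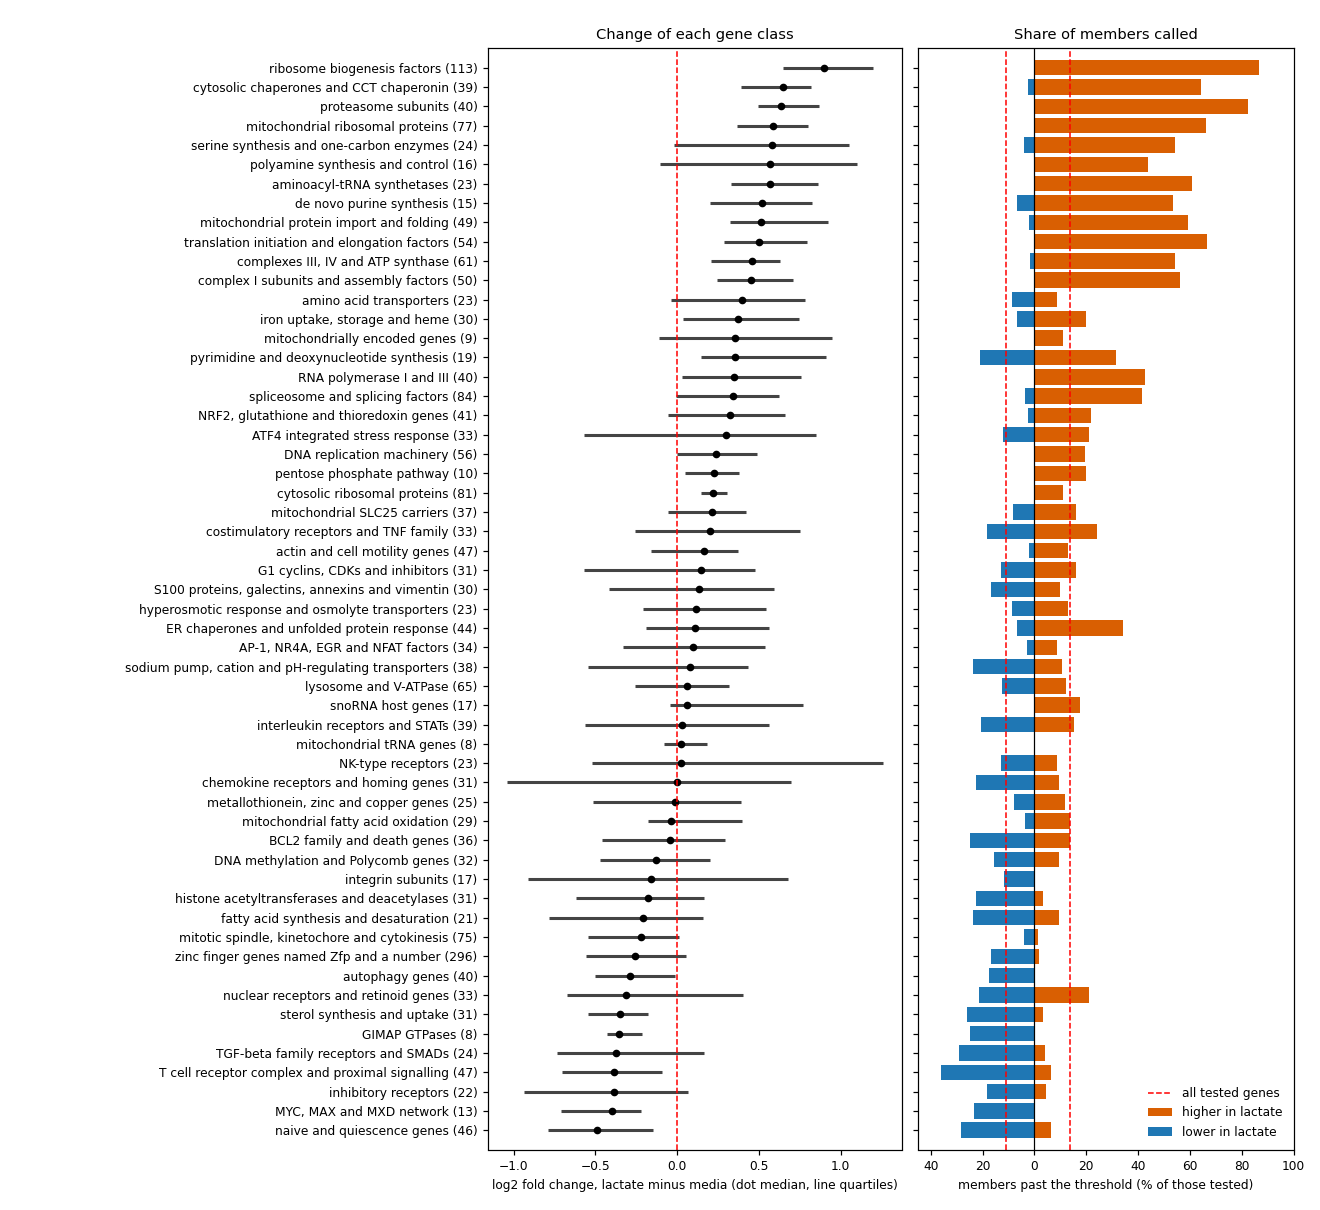
Left, median (dot) and quartiles (line) of the log2 fold change of lactate against media for each gene class, with the number of tested members in brackets; right, the percent of tested members that rose (orange) or fell (blue), with dashed lines at the shares over all tested genes (13.9% and 11.1%). Ribosome biogenesis, cytosolic chaperones, the proteasome, mitochondrial ribosomal proteins, mitochondrial import and the respiratory complexes encoded in the nucleus lie toward the top with medians of 0.45 to 0.90, and naïve, MYC network, inhibitory receptor and T cell receptor genes at the bottom.

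The median log2 fold change over all tested genes was close to 0, and the middle 50% of genes lay between -0.45 and 0.39. Against that spread, the plot of gene classes shows the ribosome biogenesis, proteasome and cytosolic chaperone lists with their whole middle range above 0. The T cell receptor and naïve lists had theirs below 0 (-0.70 to -0.09 and -0.79 to -0.15). The other receptor lists are wide, with middle ranges that span 0. The lists are described in turn, from the control of growth to the cell surface. Some list counts are also given under other settings, in which the counts over all genes moved too. All genes higher and lower were 2244 and 2307 with DESeq2 and 2462 and 2141 in the 8 activated libraries alone. They were 2552 and 2293 without naïve replicate 4, 1338 and 914 without media replicate 2, and 1941 and 1713 with the donor as a block. The donor block was fitted to the 8 activated libraries without the naïve ones. A change under it therefore cannot be assigned to the block alone.

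In the network of MYC, its partner MAX and the MXD repressors, 3 of 13 members fell and 0 rose. Myc, the activator, was at 336, 243, 304 and 565 CPM in the 4 media libraries and 633, 573, 596 and 649.6 CPM in the 4 lactate libraries. In the low run it was 336, 243 and 304 CPM in media and 633 and 573 CPM in lactate. The high run was closer, with 565 CPM in media replicate 4, its only media library, and 596 and 649.6 CPM in lactate. All lactate values were above all media values, with media replicate 4 the nearest, and the difference missed the threshold (log2 fold change 0.76 ± 0.25 (SE), adjusted p = 0.0293) but passed under 4 of the 21 alternatives (adjusted p = 0.00184 to 0.0889), the donor block among them (adjusted p = 0.00809). Mxd4, whose product competes with MYC for its partner MAX and represses the same sites, lies at chr5:34173883-34187720 (GRCm38, minus strand) and was at 88.0, 149, 96.5 and 124 CPM in media against 13.5, 28.5, 24.6 and 30.2 CPM in lactate. The groups were far apart, and Mxd4 fell (log2 fold change -2.24 ± 0.25 (SE), adjusted p = 7.42e-05), its mean in naïve cells being 161 CPM. Mxd1, another repressor of the family, fell from 42.2 to 16.1 CPM (-1.39 ± 0.22, adjusted p = 0.000477), and so did Mga, a MAX partner that represses E2F and MYC sites (-0.60 ± 0.13, adjusted p = 0.00379, and adjusted p = 0.027 with the donor as a block and 7.53e-05 to 0.0275 over the 21 alternatives). No other member passed the test. Of the MYC network, 1 rose with the donor as a block.

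Ribosome biogenesis factors, which process rRNA and assemble both ribosomal subunits in the nucleolus, held the largest share of risen genes of all lists: 98 of 113 tested members rose and 0 fell (median log2 fold change 0.90), against 13.9% and 11.1% of all genes, and 102 members had lactate higher without overlap (23.2% of all genes did). Their summed level was 8917 to 10847 CPM in media and 15212 to 18756 CPM in lactate, with the naïve libraries between 8459 and 10369 CPM. The median was 0.89 among the libraries of the low run of library numbers and 0.93 among those of the high run. Bop1, a large-subunit assembly factor at chr15:76452989-76477277, was at 52.2, 25.1, 46.3 and 36.4 CPM in media and 188, 119.6, 151 and 143 CPM in lactate. Every lactate library was above every media library by a wide margin, and Bop1 rose (log2 fold change 1.91 ± 0.20 (SE), adjusted p = 6.36e-05). Nolc1, a chaperone of nucleolar small ribonucleoproteins, was at 97.6, 48.8, 84.6 and 68.2 CPM in media and 349, 204, 259 and 254 CPM in lactate, again with no overlap, and rose (log2 fold change 1.83 ± 0.20 (SE), adjusted p = 8.01e-05). Nop56, a core protein of box C/D particles, was at 121, 76.4, 120.4 and 128 and at 360.2, 252, 318 and 312 CPM in the same order; media replicate 2 was the lowest library and the groups stayed apart (log2 fold change 1.48 ± 0.16 (SE), adjusted p = 7.4e-05). Smaller differences were measured for the abundant nucleolar proteins nucleolin and nucleophosmin: Ncl was at 1582 ± 88.0 CPM in media and 2211 ± 128 CPM in lactate (log2 fold change 0.48 ± 0.13 (SE), adjusted p = 0.0102, and adjusted p = 0.00715 with the donor as a block and 0.000447 to 0.0315 over the 21 alternatives) and Npm1 at 1754 ± 127 CPM in media and 2058 ± 80.8 CPM in lactate (log2 fold change 0.23 ± 0.10 (SE), adjusted p = 0.0714), neither past the threshold in the shared model, although neither overlapped between the groups.

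Since nearly all members rose, the promoters of its members were searched for CACGTG, the E-box that MYC, MAX and the MXD proteins bind and that reads the same on both strands. The windows are those of RefSeq on GRCm38.p6, from 250 bases before to 50 after a gene's start, and 94 of the 113 factors matched by symbol, with 103 windows. The E-box was in 20.4% of these windows, in 9.88% of the windows of all tested genes and in 7.15% of all windows in the table. It was in 13.3% of the windows of genes that rose and 8.75% of those of genes that fell. Among other lists in which most members rose, it was in 9.46% of the 74 windows of mitochondrial ribosomal proteins, in 5.71% of the 35 of proteasome subunits and in 4 of the 16 of aminoacyl-tRNA synthetases. The windows were also searched for the NRF1 element GCATGCGC and the forkhead element GTAAACA. NRF1 matched 4.85% of ribosome biogenesis, 10.8% of mitochondrial ribosomal, 8.57% of proteasome, 11.3% of mitotic spindle and 5.15% of tested windows. It matched 6.51% for genes that rose and 3.04% for those that fell. Forkhead matched 0.971% of ribosome biogenesis, 7.02% of naïve gene, 7.04% of mitotic spindle and 2.51% of tested windows. It matched 1.76% for genes that rose and 3.23% for those that fell. The forkhead share was thus not particular to the naïve list, nor the NRF1 share to lists that rose. A match is a description of letters and not of binding. The following stretches of 100 bases, from the part of the window before the start, belong to the 3 factors with the largest increase among those with an upstream match. The stretches end at the start in Dhx33 and Rbm19 and 7 bases short of it in Nop2, and are shown with the E-box in capitals, 5′ to 3′ on the strand of the gene, at chr6:125131776-125131875 (plus strand) for Nop2, chr11:71004433-71004532 (minus strand) for Dhx33 and chr5:120116413-120116512 (plus strand) for Rbm19.
Nop2: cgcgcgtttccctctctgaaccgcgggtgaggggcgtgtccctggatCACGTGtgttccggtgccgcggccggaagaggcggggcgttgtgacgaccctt
Dhx33: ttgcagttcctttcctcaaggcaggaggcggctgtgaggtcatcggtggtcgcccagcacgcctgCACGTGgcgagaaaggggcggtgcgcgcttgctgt
Rbm19: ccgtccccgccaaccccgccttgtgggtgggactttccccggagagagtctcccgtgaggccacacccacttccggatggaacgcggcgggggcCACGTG

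In Nop2 and Dhx33 the E-box begins 60 and 35 bases before the start, and in Rbm19 it is the last 6 bases before it. Nop2, a methyltransferase of 28S rRNA, was at 55.2, 30.6, 50.4 and 36.6 CPM in media and 178, 113, 127 and 124 CPM in lactate (log2 fold change 1.65 ± 0.19 (SE), adjusted p = 9.06e-05). Dhx33, a nucleolar helicase, was at 27.6, 18.9, 26.6 and 25.8 and 82.0, 45.4, 67.4 and 63.0 CPM (log2 fold change 1.38 ± 0.20 (SE), adjusted p = 0.000283). Rbm19, a small-subunit processing factor, was at 17.8, 11.1, 16.4 and 14.2 and 43.4, 21.8, 35.0 and 35.4 CPM (log2 fold change 1.19 ± 0.20 (SE), adjusted p = 0.000605). In all 3 genes lactate replicate 1 was the highest and media replicate 2 the lowest library, and the groups did not overlap.

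The polymerases that make rRNA, 5S rRNA and tRNA followed in part: of RNA polymerase I and III genes, 17 of 40 tested members rose and 0 fell (median log2 fold change 0.35). Polr1b, the second largest subunit of polymerase I, rose from 31.2, 15.3, 27.7 and 22.8 CPM in media to 104, 52.6, 74.4 and 67.6 CPM in lactate (log2 fold change 1.62 ± 0.23 (SE), adjusted p = 0.000231). Polr3d, a polymerase III subunit, rose from 10.4 to 24.1 CPM (1.21 ± 0.18, adjusted p = 0.000287). Of the cytosolic ribosomal proteins themselves, 9 of 81 tested members rose and 0 fell (median log2 fold change 0.22), a share of 11.1% against 13.9% of all genes, and their summed level overlapped between groups (57902 to 68174 CPM in media and 59839 to 74524 CPM in lactate). In the low run it was 58635, 57902 and 59059 CPM in media and 59839 and 71455 CPM in lactate. In the high run it was 68174 CPM in media replicate 4 and 74524 and 72603 CPM in lactate. The counts of these genes are uncertain because many near-identical pseudogenes exist. Rps27l, a p53-induced paralog of a small-subunit protein, rose from 68.8 to 124 CPM (0.85 ± 0.18, adjusted p = 0.0025), and Rpl13a from 135 to 238 CPM (0.82 ± 0.12, adjusted p = 0.000255), with 35.4% of its exons shared with another gene and the strand setting of the counting not stated. Among genes that host snoRNAs in their introns, 3 of 17 rose: Cct6a, Snhg17 (34.5 to 69.8 CPM; 1.02 ± 0.13) and Snhg15, while Gas5 was at 598 ± 49.5 CPM in media and 622 ± 90.8 CPM in lactate (log2 fold change 0.06 ± 0.12 (SE), adjusted p = 0.744). Of these ribosomal proteins, 2 rose with the donor as a block, 3 rose with gene length offsets, 5 rose with DESeq2's size factors or with total counts alone, 15 rose with DESeq2, 2 to 5 rose without lactate replicate 3 or 4 or media replicate 1, 2 or 3 or naïve replicate 1, 2 or 3, and 14 to 15 rose without lactate replicate 1 or naïve replicate 4. Of the snoRNA hosts, 6 rose with the donor as a block.

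Of translation initiation and elongation factors, 36 of 54 tested members rose and 0 fell (median log2 fold change 0.50). Eif5a, the only protein that carries hypusine, an amino acid made from the polyamine spermidine, was at 809, 454, 722 and 669 CPM in media and 1780.0, 1536, 1858 and 1754 CPM in lactate. The lowest lactate library was well above the highest media library (log2 fold change 1.38 ± 0.15 (SE), adjusted p = 6.57e-05). Eif2b3, a subunit of the exchange factor that recharges eIF2, rose from 17.0 to 44.9 CPM (1.40 ± 0.18, adjusted p = 0.000133). Eif4ebp1, the cap-binding inhibitor, was at 112 ± 19.2 CPM in media and 149.5 ± 10.2 CPM in lactate, without overlap and not past the threshold (log2 fold change 0.42 ± 0.14 (SE), adjusted p = 0.0356).

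The summed level of the enzymes that make and use polyamines, small cations needed for translation and growth, went from 1354 to 1989 CPM in media to between 3112 and 3569 CPM in lactate, and 7 of 16 tested members rose and 0 fell (median log2 fold change 0.57). Srm, spermidine synthase, at chr4:148591503-148594993, was at 49.0, 19.4, 44.9 and 28.0 CPM in media and 216, 128, 158 and 143 CPM in lactate. The 4 lactate values were all far above the media range, and Srm rose (log2 fold change 2.19 ± 0.26 (SE), adjusted p = 0.00011). Odc1, which makes putrescine and is a textbook MYC target, was at 174, 93.8, 169 and 135 CPM in media and 383, 269.8, 320.2 and 303 CPM in lactate. It did not overlap either and stood just outside the threshold (log2 fold change 1.16 ± 0.32 (SE), adjusted p = 0.0115), and passed under 6 of the 21 alternatives (adjusted p = 5.86e-05 to 0.0406), the donor block among them (adjusted p = 0.000712). Of the polyamine list, 2 fell with the donor as a block.

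Aminoacyl-tRNA synthetases, which load tRNAs with amino acids, rose in 14 of 23 cases with no member lower (median log2 fold change 0.57). Tars, the threonine enzyme, was at 139, 90.5, 143 and 96.9 CPM in media and 304, 254, 263 and 249 CPM in lactate, with no overlap (log2 fold change 1.19 ± 0.16 (SE), adjusted p = 0.000178). Eef1e1, a scaffold of the multi-synthetase complex, rose from 35.3 to 78.5 CPM (1.15 ± 0.17, adjusted p = 0.000343). Aars, the alanine enzyme, overlapped between groups (240.1 ± 45.6 CPM in media and 308 ± 31.8 CPM in lactate; log2 fold change 0.36 ± 0.17 (SE), adjusted p = 0.101). The ATF4 element TGATGCAA, searched on both strands, was in 4 of the 16 synthetase windows (25%, 15 genes matched by symbol), as many as held the E-box, in 0.63% of the windows of tested genes and in 0.895% of all windows. The stretch of Tars that holds it, at chr15:11399659-11399758 (minus strand), is shown because Tars had the largest rise of the list, with the element on the opposite strand in capitals and beginning 15 bases before the start.
Tars: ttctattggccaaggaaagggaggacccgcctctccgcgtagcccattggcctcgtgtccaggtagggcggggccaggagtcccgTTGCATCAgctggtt

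Of known targets of ATF4, the factor that responds to amino acid shortage and ER stress, 7 of 33 tested members rose and 4 fell (median log2 fold change 0.30). Cth, which makes cysteine, rose from 17.6 to 50.3 CPM (1.51 ± 0.39, adjusted p = 0.00869), and Gpt2, the mitochondrial alanine aminotransferase, from 35.8 to 100.4 CPM (1.49 ± 0.24, adjusted p = 0.000507). Vldlr, a lipoprotein receptor, was at 34.6, 45.4, 35.8 and 31.8 CPM in media and 4.25, 7.65, 3.47 and 5.73 CPM in lactate. Every lactate library was far below every media library, and Vldlr fell (log2 fold change -2.80 ± 0.28 (SE), adjusted p = 5.56e-05). Atf4 itself was at 355 ± 60.9 CPM in media and 437 ± 14.1 CPM in lactate (log2 fold change 0.30 ± 0.13 (SE), adjusted p = 0.0842). Asns, a standard target, overlapped between groups (135 ± 42.7 CPM in media and 196 ± 32.7 CPM in lactate; log2 fold change 0.54 ± 0.25 (SE), adjusted p = 0.108). Of the ATF4 targets, 8 fell with the donor as a block, and 4 rose without lactate replicate 3 or media replicate 4.

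In de novo purine synthesis, which builds the ring of adenine and guanine nucleotides, 8 of 15 tested members rose and 1 fell (median log2 fold change 0.52). Gart, which carries out several of the steps, rose from 102 to 265 CPM (1.38 ± 0.23, adjusted p = 0.000663), Atic, which finishes the ring, from 134 to 274 CPM (1.03 ± 0.16, adjusted p = 0.000421), and Ppat, the committed step, from 91.8 to 149 CPM (0.70 ± 0.13, adjusted p = 0.00115). Adssl1, the muscle-type adenylosuccinate synthase, fell from 64.5 to 24.95 CPM (-1.37 ± 0.25, adjusted p = 0.00116). In pyrimidine and deoxynucleotide synthesis 6 of 19 tested members rose and 4 fell (median log2 fold change 0.35): Cad and Dhodh, enzymes of de novo synthesis, rose (143 to 298 CPM and 13.9 to 33.2 CPM; 1.06 ± 0.23 and 1.25 ± 0.17, adjusted p = 0.00321 and 0.000222), as did the nucleoside diphosphate kinase Nme1 (29.3 to 78.3 CPM; 1.42 ± 0.20), and the salvage kinase Dck fell (139 to 91.0 CPM; -0.61 ± 0.11, adjusted p = 0.00116).

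In the serine and one-carbon list, 13 of 24 tested members rose and 1 fell (median log2 fold change 0.58). Shmt1, the cytosolic enzyme that takes a carbon from serine, was at 48.5, 24.5, 42.1 and 32.0 CPM in media and 144, 92.0, 108 and 106 CPM in lactate, with no overlap (log2 fold change 1.61 ± 0.21 (SE), adjusted p = 0.000172). Its mitochondrial counterpart Shmt2 rose from 304 to 624 CPM (1.04 ± 0.17, adjusted p = 0.000538), and Phgdh and Psph, the first and last enzymes of serine synthesis, rose from 169.7 to 313 CPM and 50.2 to 130.4 CPM (0.88 ± 0.19 and 1.38 ± 0.22, adjusted p = 0.00311 and 0.000484). Amt, of the glycine cleavage system, fell from 8.20 to 3.26 CPM (-1.33 ± 0.30, adjusted p = 0.00375, and adjusted p = 0.0109 with the donor as a block and 9.44e-05 to 0.0153 over the 21 alternatives). Amino acid transporters included 2 higher and 2 lower of 23 (median 0.40), 8.7% in each direction against 13.9% and 11.1% of all genes. Slc7a5, the large neutral amino acid carrier, was at 405, 170.2, 399.7 and 262 CPM in media and 875, 649, 695 and 709.9 CPM in lactate and rose without overlap (log2 fold change 1.24 ± 0.25 (SE), adjusted p = 0.00226). Slc43a2, a related carrier, fell from 78.0 to 31.3 CPM (-1.32 ± 0.19, adjusted p = 0.000252). The glutamine carrier Slc1a5 was at 299 ± 39.3 CPM in media and 389 ± 36.6 CPM in lactate, not overlapping but not past the threshold (adjusted p = 0.0177). In the pentose phosphate pathway 2 of 10 rose, Pgd (121 to 195 CPM; 0.69 ± 0.09) and Taldo1 (110.3 to 194 CPM; 0.81 ± 0.17). The entry enzyme G6pdx overlapped (72.0 ± 4.25 CPM in media and 89.5 ± 11.9 CPM in lactate, adjusted p = 0.0466). Of the amino acid transporters, 7 rose with the donor as a block.

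**Figure D2:**
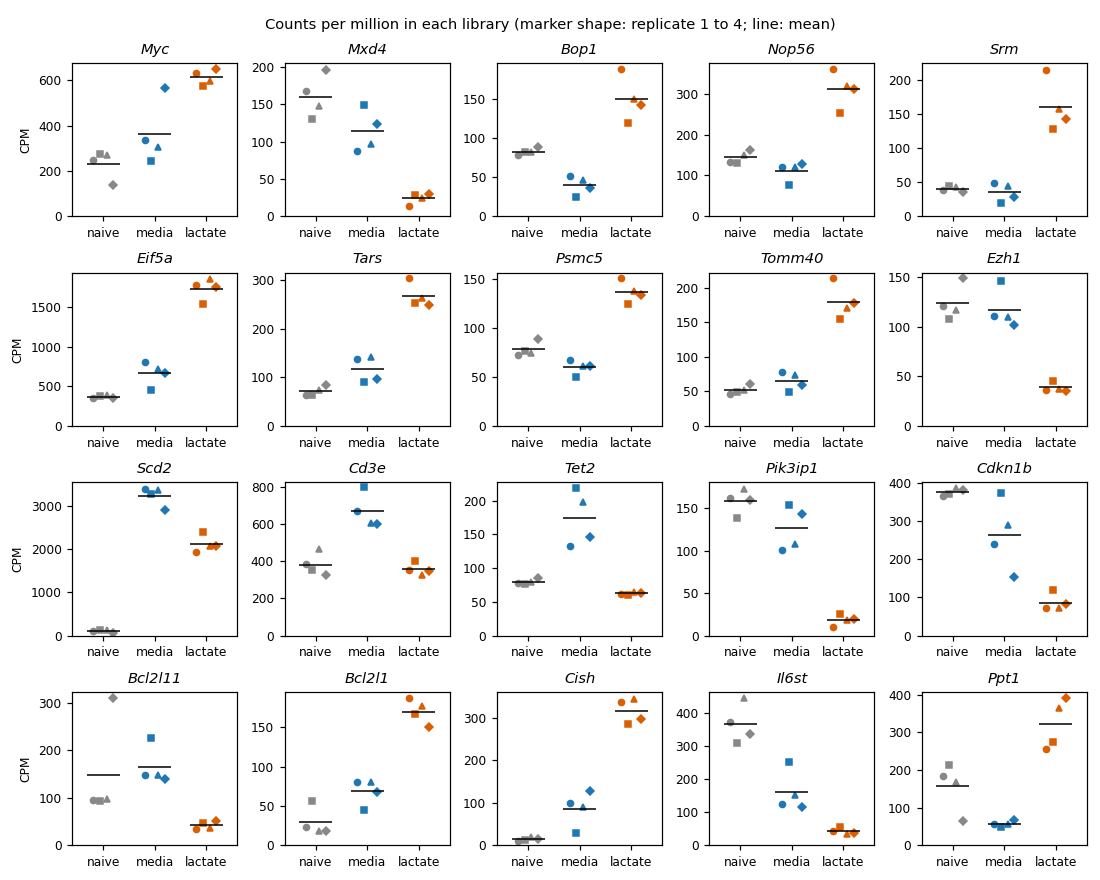
CPM in each of the 12 libraries for 20 genes named in the text, with 1 panel per gene, linear axes from 0, a marker shape for each replicate number and a line at the mean of the group. In every panel the lactate and media libraries do not overlap: lactate is above media for Myc, Bop1, Nop56, Srm, Eif5a, Tars, Psmc5, Tomm40, Bcl2l1, Cish and Ppt1 and below it for the other 9 genes.

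Of the mitochondrial ribosomal proteins, which are encoded in the nucleus, 51 of 77 tested members rose and 0 fell (median log2 fold change 0.59), and 64 had lactate higher without overlap (23.2% of all genes did). Mrpl55 rose from 11.4 to 27.1 CPM (1.25 ± 0.18, adjusted p = 0.000296) and Mrps18b from 16.0 to 40.3 CPM (1.33 ± 0.17, adjusted p = 0.000129), the latter with 30.5% of its exons overlapping another gene. In mitochondrial protein import and folding 29 of 49 tested members rose and 1 fell (median log2 fold change 0.51). Tomm40, the pore through which precursors enter, was at 77.8, 48.7, 73.8 and 59.1 CPM in media and 214, 155, 171 and 178 CPM in lactate, with all lactate libraries higher (log2 fold change 1.47 ± 0.16 (SE), adjusted p = 6.36e-05). Chchd4, which oxidises proteins in the intermembrane space, rose from 13.2 to 35.7 CPM (1.44 ± 0.25), and the matrix chaperones Hspd1 and Hspa9 rose from 240.2 to 530.3 CPM and 568 to 1076 CPM (1.14 ± 0.22 and 0.92 ± 0.16). Hspe1, the co-chaperone of Hspd1, was at 83.7 ± 18.7 CPM in media and 128 ± 2.53 CPM in lactate (log2 fold change 0.61 ± 0.35 (SE), adjusted p = 0.189, and adjusted p = 0.00623 with the donor as a block and 0.00244 to 0.388 over the 21 alternatives). The member that fell was Afg3l2, a subunit of an inner-membrane protease (382 to 228 CPM; -0.74 ± 0.09, adjusted p = 0.000115).

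Of complex I subunits and assembly factors, 28 of 50 tested members rose and 0 fell (median log2 fold change 0.45), and of complexes III, IV and the ATP synthase, 33 of 61 tested members rose and 1 fell (median log2 fold change 0.46). Ndufaf4, a complex I assembly factor, was at 12.1, 7.53, 14.7 and 10.2 CPM in media and 41.2, 34.5, 32.1 and 31.0 CPM in lactate, without overlap (log2 fold change 1.64 ± 0.18 (SE), adjusted p = 6.57e-05). Ndufs1, the largest subunit of complex I, rose from 106 to 139.6 CPM (0.40 ± 0.08, adjusted p = 0.00177). Ndufa12, a smaller subunit, rose from 24.7 to 54.5 CPM (1.14 ± 0.11), Uqcrq of complex III from 67.3 to 149 CPM (1.14 ± 0.17) and Cycs, cytochrome c, from 18.3 to 38.2 CPM (1.06 ± 0.15, adjusted p = 5.56e-05, 0.000295 and 0.000211 in that order). The single decrease, Cox20 (24.0 to 13.9 CPM; -0.78 ± 0.17), is uncertain because 91.1% of its exons overlap another gene. Of the complex I genes, 18 rose without lactate replicate 3.

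Of the 9 tested genes encoded in mitochondrial DNA, 1 rose, and the summed level of the list overlapped (13636 to 26360.0 CPM in media and 19810.0 to 33173 CPM in lactate), with media replicate 4 at the top of its group. In the low run it was 13636, 14688 and 13942 CPM in media and 21088 and 19810 CPM in lactate. In the high run it was 26360 CPM in media replicate 4, its only media library, and 28507 and 33173 CPM in lactate. The gene that rose, mt-Nd1, was at 1164, 1026, 1073 and 1801 CPM in media and 2916, 2287, 2838 and 3160.0 CPM in lactate (log2 fold change 1.15 ± 0.17 (SE), adjusted p = 0.000284) and at a mean of 3052 CPM in naïve cells. None of the 8 mitochondrial tRNA genes in the table passed the test, at summed levels of 9.65 to 25.9 CPM in media and 10.4 to 32.1 CPM in lactate. Carriers of the inner membrane were near the background shares (6 higher and 3 lower of 37, median 0.22), at 16.2% and 8.11% against 13.9% and 11.1% of all genes. The pyrimidine nucleotide carrier Slc25a33 rose from 7.58 to 19.5 CPM (1.36 ± 0.21), the dicarboxylate carrier Slc25a10 from 13.9 to 30.5 CPM (1.13 ± 0.17) and the ATP/ADP carrier Slc25a5 from 473 to 646 CPM (0.45 ± 0.12, and adjusted p = 0.0143 with the donor as a block and 0.00107 to 0.032 over the 21 alternatives). The iron carrier Slc25a28 fell from 68.3 to 35.4 CPM (-0.95 ± 0.11). Of mitochondrial fatty acid oxidation genes, 4 of 29 tested members rose and 1 fell (median log2 fold change -0.04), that is 13.8% and 3.45% against 13.9% and 11.1% of all genes. The entry enzyme Cpt1a was at 72.1 ± 4.94 CPM in media and 69.5 ± 6.52 CPM in lactate (log2 fold change -0.05 ± 0.22 (SE), adjusted p = 0.881). Among the oxidation genes that rose were Acot7, an acyl-CoA thioesterase, and Etfa, an electron transfer flavoprotein (128 to 191 CPM and 78.7 to 112 CPM; 0.58 ± 0.14 and 0.50 ± 0.09). Of the genes of mitochondrial DNA, 4 rose with the donor as a block. Of the inner membrane carriers, 11 rose in the 8 activated libraries alone, and 12 rose without naïve replicate 4. Of the fatty acid oxidation genes, 2 fell with the donor as a block.

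Most listed cytosolic chaperones and proteasome subunits rose. Of cytosolic chaperones and the CCT chaperonin, which folds actin and tubulin, 25 of 39 tested members rose and 1 fell (median log2 fold change 0.65). Cct3 was at 228, 144, 212 and 194 CPM in media and 485, 382, 442 and 411 CPM in lactate, without overlap (log2 fold change 1.14 ± 0.14 (SE), adjusted p = 0.000115), Cct6a rose from 255 to 503 CPM (0.98 ± 0.13) and Cct2 from 688 to 1003 CPM (0.54 ± 0.08). The inducible heat shock gene Hsp90aa1 was at 372 ± 47.6 CPM in media and 659.9 ± 69.4 CPM in lactate, without overlap but not past the threshold (adjusted p = 0.0387, and adjusted p = 0.00196 with the donor as a block and 5.7e-05 to 0.109 over the 21 alternatives). Of proteasome subunits 33 of 40 tested members rose and 0 fell (median log2 fold change 0.63), and 38 of the 40 had lactate higher without overlap (23.2% of all genes did). Psmc5, an ATPase of the regulatory particle, at chr11:106256154-106263120, was at 67.2, 49.5, 61.2 and 60.9 CPM in media and 151, 124, 137 and 133 CPM in lactate. The lowest lactate library was above the highest media library by a wide gap, and the naïve mean of 77.9 CPM lay between (log2 fold change 1.19 ± 0.11 (SE), adjusted p = 5.56e-05). Psmg3, an assembly chaperone of the particle, rose from 7.51 to 19.6 CPM (1.38 ± 0.19, adjusted p = 0.00024). The 7 subunits or assembly factors that did not pass were Psmb1, Psmc6, Psmd5, Psmd8, Psmd10, Psmg1 and Psmg4, which were chosen for naming after their values were seen.

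Endoplasmic reticulum chaperones and unfolded protein response genes included 15 higher and 3 lower of 44, median 0.11. Sdf2l1, a cofactor of the chaperone BiP, was at 40.8, 21.7, 34.8 and 29.8 CPM in media and 97.3, 97.8, 92.4 and 92.7 CPM in lactate, the lactate libraries lying close together and far above media (log2 fold change 1.58 ± 0.24 (SE), adjusted p = 0.000382). Xbp1, the transcription factor of the response, rose from 132 to 267 CPM (1.02 ± 0.19, adjusted p = 0.0013), and Hspa5, which encodes BiP, from 383 to 701 CPM (0.87 ± 0.19, adjusted p = 0.0037). Edem3, a mannosidase of ER-associated degradation, fell from 97.0 to 46.6 CPM (-1.06 ± 0.19, adjusted p = 0.00112). Among NRF2, glutathione and thioredoxin genes (9 higher and 1 lower of 41, median 0.32), Txnrd1, thioredoxin reductase, rose from 98.0 to 208 CPM (1.08 ± 0.16) and Glrx5, a glutaredoxin for iron-sulfur clusters, from 26.6 to 54.8 CPM (1.04 ± 0.21). Cat, catalase, fell from 95.4 to 57.1 CPM (-0.74 ± 0.17). Gclm, the classical NRF2 target in glutathione synthesis, was at 31.8 ± 1.09 CPM in media and 29.9 ± 3.05 CPM in lactate (log2 fold change -0.09 ± 0.20 (SE), adjusted p = 0.77). Txnip, the thioredoxin inhibitor that responds to sugar, was at 382 ± 194 CPM in media and 228 ± 145 CPM in lactate (log2 fold change -0.74 ± 0.50 (SE), adjusted p = 0.261). Of the NRF2 and redox genes, 4 fell with the donor as a block, and 15 rose in the 8 activated libraries alone.

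Splicing factors rose in 35 of 84 cases and fell in 3 (median log2 fold change 0.34). Hnrnpab, an RNA-binding protein, was at 449, 331, 417 and 386 CPM in media and 1191, 865, 1070.0 and 1052 CPM in lactate (log2 fold change 1.40 ± 0.12 (SE), adjusted p = 4.9e-05), with 29.1% of its exons overlapping another gene, and Prpf31, of the tri-snRNP, rose from 52.4 to 121 CPM (1.21 ± 0.14). The 3 that fell were the kinases Clk1 (266 to 129 CPM; -1.04 ± 0.19) and Clk4, which phosphorylate SR proteins, and Sf3b1 (1325 to 781 CPM; -0.76 ± 0.13), which recognises the branch point.

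Cell cycle genes were taken by phase. Of the DNA replication machinery, 11 of 56 tested members rose and 0 fell (median log2 fold change 0.24), and 29 of 56 members had lactate higher without overlap (23.2% of all genes did) against 3 lower. Pcna, the sliding clamp, rose from 262 to 369 CPM (0.49 ± 0.10, adjusted p = 0.00165) and Orc2, of the origin complex, from 42.9 to 80.1 CPM (0.90 ± 0.12, adjusted p = 0.000214, 29.8% overlap of exons). Fen1, the flap endonuclease, rose from 78.2 to 139 CPM (0.83 ± 0.12) but shares 84.2% of its exons with another gene. The helicase subunit Mcm3 rose from 348 to 451 CPM (0.37 ± 0.10, adjusted p = 0.00992, and adjusted p = 0.0222 with the donor as a block and 0.00346 to 0.0429 over the 21 alternatives), and its partner Mcm5 was at 307 ± 32.1 CPM in media and 394 ± 34.6 CPM in lactate (adjusted p = 0.0202). Of the replication genes, 1 fell with the donor as a block, 19 rose in the 8 activated libraries alone, and 6 to 7 rose without lactate replicate 1, 3 or 4 or media replicate 1, 2 or 3. Of mitotic spindle, kinetochore and cytokinesis genes, 1 of 75 tested members rose and 3 fell (median log2 fold change -0.22), below both background shares, yet 36 of 75 had lactate lower without overlap (21.5% of all genes did), and the summed level was 13670.0 to 16296 CPM in media and 11048 to 12357 CPM in lactate.

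With the donor as a block 24 of these 75 genes fell and 0 rose, and over all alternatives 1 to 29 fell and 0 to 4 rose. The fit with the block also left out the naïve libraries, so this change in the count cannot be assigned to the block alone. Cdc25b, a phosphatase that triggers mitotic entry, fell from 234 to 114 CPM (-1.04 ± 0.18, adjusted p = 0.00084) and Cenpa, the centromeric histone, from 426 to 254 CPM (-0.75 ± 0.18, adjusted p = 0.00532). Bub3, of the spindle checkpoint, rose from 155 to 202 CPM (0.38 ± 0.08, adjusted p = 0.00288, and adjusted p = 0.0128 with the donor as a block and 0.000187 to 0.0128 over the 21 alternatives). Aspm, a spindle pole protein, was at 154, 208, 167 and 130.3 CPM in media and 104, 75.9, 87.7 and 76.9 CPM in lactate. The groups did not overlap and the test missed (log2 fold change -0.93 ± 0.34 (SE), adjusted p = 0.0422) but passed under 5 of the 21 alternatives (adjusted p = 0.000533 to 0.119), the donor block among them (adjusted p = 0.00162). Ccnb1, cyclin B1, was at 92.6, 82.3, 87.4 and 90.4 CPM in media and 132, 114, 112 and 108 CPM in lactate, which did not overlap and did not pass (log2 fold change 0.40 ± 0.24 (SE), adjusted p = 0.204). Plk1, a mitotic kinase, overlapped (152 ± 13.2 CPM in media and 172 ± 24.7 CPM in lactate; log2 fold change 0.17 ± 0.21 (SE), adjusted p = 0.539). Anln, a cytokinesis scaffold, was at 112 ± 17.4 CPM in media and 57.9 ± 8.94 CPM in lactate (log2 fold change -0.95 ± 0.39 (SE), adjusted p = 0.0725, and adjusted p = 0.000604 with the donor as a block and 5.41e-05 to 0.167 over the 21 alternatives). Mki67, the proliferation marker Ki-67, was at 1256 ± 165 CPM in media and 906 ± 136 CPM in lactate (log2 fold change -0.47 ± 0.44 (SE), adjusted p = 0.429).

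Genes of the G1 checkpoint included 5 higher and 4 lower of 31, median 0.15. Cdkn1b, the CDK inhibitor p27 that holds resting T cells out of the cycle, at chr6:134920401-134925513, was at 240.3, 375, 291 and 154 CPM in media and 73.0, 119, 71.5 and 81.6 CPM in lactate. No media library reached down to the lactate range, and Cdkn1b fell (log2 fold change -1.62 ± 0.23 (SE), adjusted p = 0.000282). The pocket proteins Rb1, Rbl1 and Rbl2, which hold E2F in check, all fell (184 to 114 CPM, 124 to 82.7 CPM and 154 to 104 CPM; -0.69 ± 0.13, -0.59 ± 0.13 and -0.57 ± 0.08). Ccne1, cyclin E1, rose from 58.8 to 130.1 CPM (1.14 ± 0.18, adjusted p = 0.000387) and Tfdp1, the E2F partner, from 123 to 269 CPM (1.13 ± 0.14, adjusted p = 0.000144). Ccnd2 overlapped (364 ± 47.8 CPM in media and 432 ± 91.3 CPM in lactate; log2 fold change 0.25 ± 0.25 (SE), adjusted p = 0.473). Cdkn1a, the inhibitor p21, was at 116, 74.6, 123 and 66.8 CPM in media and 161, 198, 151 and 159 CPM in lactate (log2 fold change 0.81 ± 0.30 (SE), adjusted p = 0.0451, and adjusted p = 0.00357 with the donor as a block and 0.00297 to 0.127 over the 21 alternatives). Of the G1 genes, 7 fell with the donor as a block, and 8 rose without naïve replicate 4.

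In lipid synthesis more listed genes fell than rose. Of sterol synthesis and uptake genes, 1 of 31 tested members rose and 8 fell (median log2 fold change -0.35), and 14 of 31 had lactate lower without overlap (21.5% of all genes did). Hmgcs1, which makes HMG-CoA for cholesterol synthesis, at chr13:119690379-119708260, was at 891, 716, 743 and 673 CPM in media and 424, 502, 399.5 and 379.5 CPM in lactate. The 2 ranges were separated, both above the naïve mean of 64.4 CPM, and Hmgcs1 fell (log2 fold change -0.83 ± 0.19 (SE), adjusted p = 0.0047), as did Insig1, which retains the SREBP escort in the ER (178 to 111 CPM; -0.69 ± 0.16), the sterol carrier Stard4 (444 to 294 CPM; -0.60 ± 0.12) and the lysosomal cholesterol exporter Npc1 (136 to 94.8 CPM; -0.52 ± 0.11). Scap, the escort itself, was the member that rose (99.2 to 137 CPM; 0.47 ± 0.10, adjusted p = 0.00346). Of the sterol genes, 4 fell with gene length offsets, and 13 fell without naïve replicate 4.

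In fatty acid synthesis and desaturation 2 of 21 tested members rose and 5 fell (median log2 fold change -0.21). Scd2, a stearoyl-CoA desaturase, was at 3390.0, 3279, 3375 and 2908 CPM in media and 1944, 2409, 2066 and 2071 CPM in lactate, without overlap (log2 fold change -0.61 ± 0.16 (SE), adjusted p = 0.00961). The 2 acetyl-CoA synthetases that capture free acetate fell, Acss1 from 73.0 to 34.5 CPM (-1.08 ± 0.14, adjusted p = 0.000151) and Acss2 from 73.9 to 38.2 CPM (-0.95 ± 0.21, adjusted p = 0.00389). Acsl1, which activates long-chain fatty acids, rose from 6.40 to 19.0 CPM (1.57 ± 0.35, adjusted p = 0.004). Fasn overlapped between the groups (418 ± 69.4 CPM in media and 467 ± 104 CPM in lactate; log2 fold change 0.16 ± 0.17 (SE), adjusted p = 0.479). Of the fatty acid synthesis genes, 9 fell with the donor as a block, 10 fell in the 8 activated libraries alone, 3 fell without lactate replicate 1, 3 or 4 or media replicate 2, 3 or 4, and 9 fell without naïve replicate 4.

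Because the lactate was added as the sodium salt, genes of osmotic and ionic balance were listed. The hyperosmotic response and osmolyte transporters were near the background shares (3 higher and 2 lower of 23, median 0.12). Akr1b3, aldose reductase, which makes sorbitol, was at 67.6, 52.2, 64.5 and 69.3 CPM in media and 100.5, 94.5, 108 and 103 CPM in lactate and rose without overlap (log2 fold change 0.68 ± 0.11 (SE), adjusted p = 0.000506), as did Slc6a6, the taurine carrier (167 to 294 CPM; 0.81 ± 0.14, adjusted p = 0.000953). Nfat5, the transcription factor of the response, was at 144, 174, 192 and 163 CPM in media and 200.5, 119, 243 and 173 CPM in lactate, which overlapped (log2 fold change 0.13 ± 0.20 (SE), adjusted p = 0.664), and so did the inositol carrier Slc5a3 (49.7 ± 12.9 CPM in media and 63.7 ± 13.3 CPM in lactate; log2 fold change 0.36 ± 0.21 (SE), adjusted p = 0.208). Smpdl3a, a phosphodiesterase, fell from 51.7 to 24.6 CPM (-1.07 ± 0.21). Of the hyperosmotic list, 5 rose with the donor as a block.

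Among the sodium pump, cation and pH-regulating transporters 4 of 38 tested members rose and 9 fell (median log2 fold change 0.08). Slc4a8, a sodium-driven bicarbonate exchanger, rose from 22.7 to 42.7 CPM (0.91 ± 0.20, adjusted p = 0.00319). The potassium channel gene Kcna3 fell from 47.8 to 21.5 CPM (-1.16 ± 0.22), the calcium-activated channel Kcnn4 from 268 to 179 CPM (-0.58 ± 0.12) and Kcna2 from 5.27 to 0.479 CPM (-3.41 ± 0.71), with the pump modulator Fxyd7 from 5.95 to 1.12 CPM (-2.40 ± 0.48). Atp1b1, a beta subunit of the sodium pump, was at 27.4 ± 4.84 CPM in media and 19.4 ± 3.48 CPM in lactate (log2 fold change -0.50 ± 0.18 (SE), adjusted p = 0.0441, and adjusted p = 0.00927 with the donor as a block and 0.00927 to 0.12 over the 21 alternatives). Kcna3 and Kcnn4 were named after their values were seen.

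Genes of iron (6 higher and 2 lower of 30, median 0.37) and of metallothioneins, zinc and copper (3 higher and 2 lower of 25, median -0.01) were called in both directions. Pcbp1, an iron chaperone, rose from 257 to 499.6 CPM (0.96 ± 0.12, adjusted p = 0.000118). The transferrin receptor Tfrc (663 ± 126 CPM in media and 678 ± 106 CPM in lactate; log2 fold change 0.03 ± 0.25 (SE), adjusted p = 0.944) and the ferritin gene Fth1 (337 ± 46.1 CPM in media and 351 ± 32.7 CPM in lactate; log2 fold change 0.06 ± 0.16 (SE), adjusted p = 0.805) overlapped. The zinc importer Slc39a6 rose from 52.2 to 102 CPM (0.97 ± 0.13) and the copper chaperone Ccs from 19.9 to 30.5 CPM (0.62 ± 0.11). The copper exporter Atp7a fell from 15.0 to 5.16 CPM (-1.54 ± 0.19). Mt1 was at 66.3 ± 12.2 CPM in media and 32.6 ± 10.3 CPM in lactate (log2 fold change -1.02 ± 0.31 (SE), adjusted p = 0.0213, and adjusted p = 0.00489 with the donor as a block and 0.00178 to 0.0639 over the 21 alternatives). Of the iron genes, 11 rose in the 8 activated libraries alone. Of the metal list, 5 fell with the donor as a block.

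Among genes of the resting programme, whose summed level was already lower after activation, more fell than rose with lactate. Of naïve and quiescence genes, 3 of 46 tested members rose and 13 fell (median log2 fold change -0.49), 21 of 46 had lactate lower without overlap (21.5% of all genes did), and the summed level was 5894 to 8571 CPM in media and 4630.0 to 6309 CPM in lactate, against 21679 to 24066 CPM in naïve cells. Pik3ip1, an inhibitor of PI3-kinase, at chr11:3330401-3342971, was at 101, 154, 108 and 144 CPM in media and 10.2, 25.2, 18.4 and 19.8 CPM in lactate. Media cells were near the naïve mean of 158 CPM and all lactate cells far below (log2 fold change -2.78 ± 0.24 (SE), adjusted p = 4.9e-05). Klf2, which drives S1pr1, was at 45.6, 163, 51.4 and 169 CPM in media and 7.22, 19.5, 33.5 and 48.5 CPM in lactate; lactate replicate 4 lay within the media range, and the test missed (log2 fold change -1.98 ± 0.55 (SE), adjusted p = 0.0134, and adjusted p = 0.000589 with the donor as a block and 0.000589 to 0.0458 over the 21 alternatives). Foxo1 and Foxo3 fell from 208 to 155 CPM and 169.8 to 97.4 CPM (-0.42 ± 0.10 and -0.80 ± 0.14), and for Foxo1 the value was adjusted p = 0.0249 with the donor as a block and 0.000123 to 0.103 over the 21 alternatives. Tsc22d3 (GILZ), a FOXO and glucocorticoid target, fell from 113 to 41.0 CPM (-1.47 ± 0.34, adjusted p = 0.00496). Tcf7, the factor of stem-like T cells, overlapped (434 ± 134 CPM in media and 317 ± 66.7 CPM in lactate; log2 fold change -0.45 ± 0.22 (SE), adjusted p = 0.119), as did Il7r (153 ± 27.1 CPM in media and 167 ± 37.4 CPM in lactate; log2 fold change 0.13 ± 0.37 (SE), adjusted p = 0.824). Igfbp4, high in naïve cells, rose from 15.8 to 54.0 CPM (1.77 ± 0.46, adjusted p = 0.00907). Of the naïve genes, 20 fell with DESeq2, 7 to 8 fell without lactate replicate 1, 2 or 3 or media replicate 2 or 4, and 20 fell without naïve replicate 4.

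Chemokine receptors and homing genes were called in both directions (3 higher and 7 lower of 31, median 0.00). Ccr7, which guides T cells to lymph nodes, fell from 513 to 258 CPM (-0.99 ± 0.25, adjusted p = 0.00721), Gpr183, an oxysterol receptor, from 17.1 to 5.66 CPM (-1.59 ± 0.20) and Cxcr4 from 86.7 to 30.8 CPM (-1.49 ± 0.28). S1pr1, the receptor for exit from lymph nodes, was at 39.9, 117, 39.5 and 80.6 CPM in media and 22.8, 28.6, 30.1 and 31.0 CPM in lactate, not overlapping and just outside the threshold (log2 fold change -1.30 ± 0.36 (SE), adjusted p = 0.0124, and adjusted p = 0.00424 with the donor as a block and 0.000627 to 0.0486 over the 21 alternatives). Ccr4, a receptor for the chemokines CCL17 and CCL22, was at 11.1, 7.80, 12.7 and 17.5 CPM in media and 60.9, 47.3, 68.7 and 65.0 CPM in lactate and rose, with all lactate libraries high (log2 fold change 2.30 ± 0.37 (SE), adjusted p = 0.000548). The leukotriene receptor Ltb4r1 rose from 0.868 to 5.78 CPM (2.71 ± 0.52). Of 17 integrin subunits 2 fell, among them Itga7, a laminin receptor subunit (13.04 to 54.2 CPM in the media libraries and 3.02 to 8.33 CPM in lactate, -2.44 ± 0.48, adjusted p = 0.00177). Itgae overlapped (2.38 ± 1.83 CPM in media and 1.26 ± 0.412 CPM in lactate; log2 fold change -0.91 ± 0.57 (SE), adjusted p = 0.221). Of the homing genes, 5 rose with the donor as a block. Of the integrins, 2 rose with the donor as a block.

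Of the T cell receptor complex and its proximal signalling, 3 of 47 tested members rose and 17 fell (median log2 fold change -0.38), and 25 of 47 had lactate lower without overlap (21.5% of all genes did). The summed level of 14782 to 17987 CPM in media and 11844 to 12048 CPM in lactate did not overlap either. Cd3e, a CD3 chain of the receptor, was at 671, 801, 605 and 599 CPM in media and 353, 400.1, 324 and 349 CPM in lactate, near its naïve mean of 382 CPM (log2 fold change -0.91 ± 0.13 (SE), adjusted p = 0.000269). Of the CD3 chains named after their values were seen, Cd3d fell from 436 to 261 CPM (-0.74 ± 0.15, adjusted p = 0.00233) and Cd3g from 572 to 329 CPM (-0.80 ± 0.21, adjusted p = 0.0091). Ptprc, the phosphatase CD45, fell from 2093 to 1289 CPM (-0.70 ± 0.10, adjusted p = 0.000345) and Plcg1, the phospholipase behind the calcium signal, from 369 to 198 CPM (-0.89 ± 0.13, adjusted p = 0.000317). Txk, a Tec kinase, fell from 75.2 to 32.2 CPM (-1.22 ± 0.27, adjusted p = 0.00347). The fall was not limited to activators: Cblb, a ubiquitin ligase that restrains the receptor, fell from 685 to 289 CPM (-1.25 ± 0.31, adjusted p = 0.00745). Ubash3b, a phosphatase that shuts the signal down, rose from 78.4 to 181 CPM (1.21 ± 0.21, adjusted p = 0.000928). Of the receptor signalling genes, 11 fell with gene length offsets, and 10 to 11 fell without lactate replicate 1, 3 or 4 or media replicate 2 or 3.

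**Figure D3:**
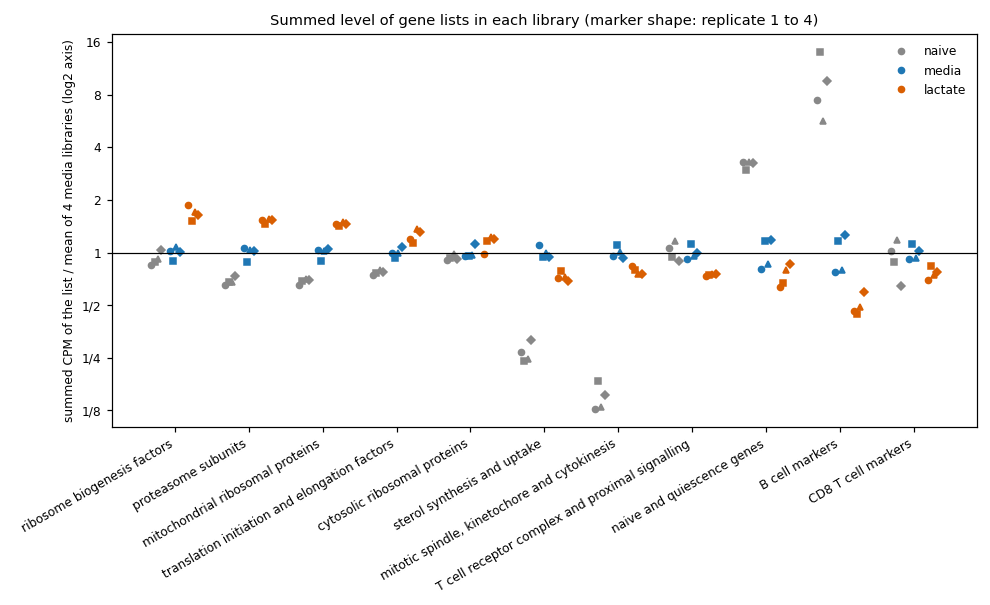
Summed CPM of 11 gene lists in each library, divided by the mean of the 4 media libraries and drawn on a log2 axis, with a marker shape for each replicate number. The lactate libraries (orange) lie above all media libraries (blue) for ribosome biogenesis, the proteasome, mitochondrial ribosomal proteins and translation factors, below them for sterol, mitotic, T cell receptor, B cell and CD8 lists, and within or next to them for cytosolic ribosomal proteins and naïve genes.

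Inhibitory receptors included 1 higher and 4 lower of 22, median -0.39. Btla fell from 106 to 55.5 CPM (-0.94 ± 0.18, adjusted p = 0.00134) and Cd101 from 10.8 to 4.90 CPM (-1.13 ± 0.19, adjusted p = 0.000681). Pdcd1, which encodes PD-1, was at 50.5, 27.7, 32.5 and 75.6 CPM in media and 62.4, 33.4, 59.1 and 57.7 CPM in lactate and overlapped (log2 fold change 0.19 ± 0.51 (SE), adjusted p = 0.801). Lag3 was at 515 ± 24.5 CPM in media and 351 ± 36.6 CPM in lactate, without overlap but outside the threshold (log2 fold change -0.55 ± 0.18 (SE), adjusted p = 0.0243, and adjusted p = 0.00377 with the donor as a block and 0.000715 to 0.0713 over the 21 alternatives). The 1 gene called higher, Havcr2 (TIM-3), stayed low at 1.06, 0.709, 0.279 and 0.439 CPM in media and 4.92, 0.996, 2.48 and 2.698 CPM in lactate, with lactate replicate 2 inside the media range (log2 fold change 2.12 ± 0.46 (SE), adjusted p = 0.00336).

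Costimulatory receptors and TNF family members were called in both directions (8 higher and 6 lower of 33, median 0.20). Lta, the cytokine lymphotoxin α, was at 37.5, 12.6, 33.4 and 23.0 CPM in media and 468, 409, 508 and 361 CPM in lactate, with the lowest lactate library far above the highest media library (log2 fold change 4.03 ± 0.31 (SE), adjusted p = 4.9e-05). Tnfrsf8, the receptor CD30, was at 6.38, 1.69, 6.46 and 2.13 CPM in media and 57.2, 54.7, 41.4 and 29.2 CPM in lactate (log2 fold change 3.44 ± 0.46 (SE), adjusted p = 0.000175). Tnfsf11, the cytokine RANKL, rose from 9.61 to 36.4 CPM (1.92 ± 0.38). On the other side Cd27 fell from 134 to 59.5 CPM (-1.17 ± 0.15), Cd28, the main costimulatory receptor, from 541 to 279 CPM (-0.95 ± 0.17) and Tnfrsf14, the partner of BTLA, from 21.3 to 8.60 CPM (-1.30 ± 0.20). Tnfrsf4 (OX40) was at 249.8 ± 59.9 CPM in media and 400.5 ± 38.7 CPM in lactate (log2 fold change 0.68 ± 0.32 (SE), adjusted p = 0.106, and adjusted p = 0.00775 with the donor as a block and 0.00204 to 0.258 over the 21 alternatives). Of the costimulatory genes, 5 rose without lactate replicate 3 or 4 or media replicate 1 or 2. The calls among NK-type receptors were 2 higher and 3 lower of 23, median 0.02, and the median was -0.47 with the donor as a block. Klrk1 (NKG2D) was at 254 ± 37.0 CPM in media and 164 ± 25.7 CPM in lactate (log2 fold change -0.63 ± 0.24 (SE), adjusted p = 0.0566, and adjusted p = 0.0034 with the donor as a block and 0.00233 to 0.135 over the 21 alternatives). Cd7 was at 20.7, 37.4, 18.8 and 29.0 CPM in media and 0.205, 3.35, 1.56 and 1.73 CPM in lactate (log2 fold change -3.94 ± 0.59 (SE), adjusted p = 0.000325). Klrd1 (CD94) fell from 139 to 47.4 CPM (-1.55 ± 0.22) and Klri2 from 11.3 to 2.98 CPM (-1.92 ± 0.45). Klrc1 (NKG2A), which pairs with CD94, rose from 11.3 to 30.6 CPM (1.43 ± 0.37, adjusted p = 0.00879).

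Interleukin receptors and STAT pathway genes included 6 higher and 8 lower of 39, median 0.03. Cish, a feedback inhibitor of cytokine signalling, was at 100.1, 27.8, 90.3 and 127 CPM in media and 338, 285, 345 and 298 CPM in lactate, without overlap (log2 fold change 1.88 ± 0.34 (SE), adjusted p = 0.00119), and 2 genes of its family were named after their values were seen, Socs1, which rose from 40.9 to 112 CPM (1.45 ± 0.33, adjusted p = 0.00444), and Socs2, which rose from 30.05 to 77.1 CPM (1.36 ± 0.27, adjusted p = 0.00205). Il2ra, the inducible chain of the IL-2 receptor, was at 703, 402, 716 and 462 CPM in media and 1768, 1420.0, 1552 and 1364 CPM in lactate. All lactate libraries were above all media libraries, and the difference missed the threshold (log2 fold change 1.42 ± 0.48 (SE), adjusted p = 0.0322) but passed under 3 of the 21 alternatives (adjusted p = 4.55e-05 to 0.0956), the donor block among them (adjusted p = 0.000383). Il6st, the gp130 chain shared by IL-6 family receptors, was at 125, 253, 152 and 117 CPM in media and 42.3, 54.9, 35.0 and 36.7 CPM in lactate and fell (log2 fold change -1.94 ± 0.24 (SE), adjusted p = 0.000126). Jak2 fell from 156 to 86.7 CPM (-0.85 ± 0.14). Il12rb2 was at 528 ± 58.4 CPM in media and 367 ± 30.4 CPM in lactate (log2 fold change -0.53 ± 0.18 (SE), adjusted p = 0.0363), with 40.0% of its exons overlapping another gene. Of the interleukin and STAT genes, 10 rose with the donor as a block, and 5 fell without lactate replicate 3.

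Of TGF-β family receptors and SMADs, 1 of 24 tested members rose and 7 fell (median log2 fold change -0.38). Acvrl1, the type I receptor ALK1, was at 68.8, 109, 90.0 and 78.7 CPM in media and 8.04, 34.6, 11.2 and 14.9 CPM in lactate. Lactate replicate 2 was the highest of its group and still below all media libraries (log2 fold change -2.33 ± 0.43 (SE), adjusted p = 0.0012). Tgfbr2 fell from 116 to 58.2 CPM (-0.99 ± 0.15, adjusted p = 0.000377) and Ltbp3, which binds latent TGF-β, from 20.2 to 9.76 CPM (-1.04 ± 0.22). Tgfbr1 was at 29.8 ± 6.67 CPM in media and 18.2 ± 2.31 CPM in lactate (log2 fold change -0.71 ± 0.23 (SE), adjusted p = 0.0252, and adjusted p = 0.00646 with the donor as a block and 0.00148 to 0.0868 over the 21 alternatives). Smad7 overlapped (33.9 ± 10.7 CPM in media and 27.1 ± 7.32 CPM in lactate; log2 fold change -0.32 ± 0.26 (SE), adjusted p = 0.349). Of the TGF-β list, 3 rose with the donor as a block, 4 fell with gene length offsets, and 4 fell without lactate replicate 1, 3 or 4 or media replicate 3.

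Transcription factors downstream of the receptor were mostly not called (3 higher and 1 lower of 34, median 0.10), at 8.82% and 2.94% against 13.9% and 11.1% of all genes. Batf3, an AP-1 family factor, was at 24.6, 5.02, 24.6 and 14.7 CPM in media and 87.2, 87.0, 76.7 and 78.1 CPM in lactate, without overlap (log2 fold change 2.25 ± 0.44 (SE), adjusted p = 0.00168). Fosl1 rose from 1.47 to 6.19 CPM (2.07 ± 0.54, 57.2% overlap of exons). Ikzf2 (Helios) fell from 117 to 38.2 CPM (-1.62 ± 0.29, adjusted p = 0.00103). Irf4 overlapped (296 ± 79.2 CPM in media and 418 ± 37.8 CPM in lactate; log2 fold change 0.50 ± 0.41 (SE), adjusted p = 0.36), and so did Egr2 (17.1 ± 12.0 CPM in media and 32.4 ± 11.2 CPM in lactate; log2 fold change 0.93 ± 0.48 (SE), adjusted p = 0.143, and adjusted p = 0.0084 with the donor as a block and 0.0084 to 0.297 over the 21 alternatives). Of these factors, 6 rose and 3 fell with the donor as a block. Nuclear receptors and retinoid genes were called in both directions (7 higher and 7 lower of 33, median -0.31). Rora, an orphan nuclear receptor, was at 29.8, 56.1, 49.1 and 35.3 CPM in media and 8.35, 12.8, 13.02 and 14.3 CPM in lactate and fell without overlap (log2 fold change -1.81 ± 0.27 (SE), adjusted p = 0.000317). Nr1d1, a clock repressor that binds the same sites, rose from 1.01 to 2.94 CPM (1.54 ± 0.23), and Vdr and Rara overlapped (5.82 ± 1.49 CPM in media and 4.42 ± 1.54 CPM in lactate for Vdr and 69.6 ± 11.8 CPM in media and 59.1 ± 3.87 CPM in lactate for Rara, adjusted p = 0.338 and 0.349). Of the nuclear receptors, 11 fell with DESeq2, 3 to 4 rose without lactate replicate 3 or media replicate 2, and 12 fell without naïve replicate 4.

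Genes of the BCL2 family and cell death included 5 higher and 9 lower of 36, median -0.04. Bcl2l11, the BH3-only killer BIM, at chr2:128126038-128162547, was at 147, 226, 147 and 139.9 CPM in media and 34.4, 45.5, 35.4 and 49.9 CPM in lactate. Media replicate 2 was the highest library and the groups were far apart (log2 fold change -1.997 ± 0.37 (SE), adjusted p = 0.00134). The BH3-only genes Bmf and Bbc3 (PUMA) fell too, from 38.8 to 19.2 CPM and 61.1 to 34.7 CPM (-1.01 ± 0.23 and -0.81 ± 0.21). Bcl2l1, the survival protein BCL-XL, was at 80.5, 45.0, 80.2 and 67.9 CPM in media and 187, 166, 177 and 149.7 CPM in lactate and rose (log2 fold change 1.31 ± 0.32 (SE), adjusted p = 0.00636). Bcl2 overlapped (448 ± 79.0 CPM in media and 501 ± 41.4 CPM in lactate; log2 fold change 0.16 ± 0.29 (SE), adjusted p = 0.695). The killers Bax and Bid rose from 65.0 to 128 CPM and 22.6 to 51.9 CPM (0.97 ± 0.13 and 1.20 ± 0.12). Birc2, an inhibitor of apoptosis that also regulates NF-κB, fell from 146 to 54.9 CPM (-1.41 ± 0.14, adjusted p = 5.97e-05). Of the death genes, 3 rose without lactate replicate 1, 3 or 4 or media replicate 1, and 4 to 5 fell without lactate replicate 1, 2 or 3 or media replicate 1 or 2.

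Autophagy genes fell in 7 of 40 cases and none rose (median log2 fold change -0.29). Wipi1, which binds the forming membrane, fell from 14.7 to 5.83 CPM (-1.34 ± 0.33) and Atg12, of the conjugation system, from 82.6 to 41.3 CPM (-1.001 ± 0.13). The cargo receptor Sqstm1 overlapped (161 ± 9.48 CPM in media and 137 ± 17.5 CPM in lactate; log2 fold change -0.23 ± 0.21 (SE), adjusted p = 0.411). Lysosome and V-ATPase genes were near the background shares (8 higher and 8 lower of 65, median 0.06). Ppt1, a lysosomal enzyme that removes palmitate from proteins, was at 57.4, 47.4, 55.1 and 68.1 CPM in media and 254, 275, 365 and 391 CPM in lactate, the 2 high-run lactate libraries highest and no overlap (log2 fold change 2.50 ± 0.30 (SE), adjusted p = 0.000116). The tetraspanin Cd63 rose from 1.04 to 7.04 CPM (2.76 ± 0.35) and the cholesterol-binding Npc2 fell from 439.7 to 188 CPM (-1.22 ± 0.20). Lamp1 was at 132 ± 8.64 CPM in media and 178 ± 13.4 CPM in lactate (adjusted p = 0.0311, and adjusted p = 0.00884 with the donor as a block and 0.00148 to 0.0891 over the 21 alternatives). Ctsd overlapped (105 ± 14.3 CPM in media and 94.1 ± 5.38 CPM in lactate, adjusted p = 0.593, 34.4% overlap of exons). Of the autophagy genes, 1 rose and 14 fell with the donor as a block, 11 fell with DESeq2, 12 fell in the 8 activated libraries alone, and 13 fell without naïve replicate 4. Over all tested genes, 1713, 2307, 2141 and 2293 fell in the same settings, against 1534 in the reported fit. Of the lysosome genes, 4 to 5 rose without lactate replicate 3 or 4 or media replicate 1, 2 or 3, and 5 fell without lactate replicate 1 or 3 or media replicate 2.

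Actin and cell motility genes included 6 higher and 1 lower of 47, median 0.16, that is 12.8% and 2.13% against 13.9% and 11.1% of all genes. Capg, an actin-capping protein, rose from 150.1 to 327 CPM (1.12 ± 0.26) and Cfl1, cofilin, from 747 to 1236 CPM (0.73 ± 0.14). The GTPase Rhoh fell from 171 to 114 CPM (-0.59 ± 0.15). Actb, at 3801 ± 501 CPM in media and 5603 ± 729 CPM in lactate, missed the threshold (adjusted p = 0.0103, and adjusted p = 0.00191 with the donor as a block and 0.000519 to 0.0367 over the 21 alternatives). Of S100 proteins, galectins, annexins and vimentin (3 higher and 5 lower of 30, median 0.13), S100a6 was at 7.40, 11.8, 6.58 and 7.08 CPM in media and 38.8, 35.5, 39.8 and 40.1 CPM in lactate, without overlap (log2 fold change 2.23 ± 0.25 (SE), adjusted p = 8.01e-05). Lgals4 and Ahnak fell from 37.9 to 11.2 CPM and 421 to 192 CPM (-1.76 ± 0.27 and -1.13 ± 0.20). Lgals3 was at 59.2 ± 17.9 CPM in media and 118 ± 34.8 CPM in lactate (log2 fold change 0.99 ± 0.34 (SE), adjusted p = 0.0354, and adjusted p = 0.000927 with the donor as a block and 0.000387 to 0.111 over the 21 alternatives), and Anxa2 at 669 ± 65.2 CPM in media and 483 ± 98.8 CPM in lactate (log2 fold change -0.47 ± 0.17 (SE), adjusted p = 0.0401). GIMAP GTPases, which support lymphocyte survival, fell in 2 of 8 cases: Gimap6 from 383 to 284 CPM (-0.43 ± 0.11) and Gimap1 from 125 to 81.7 CPM (-0.62 ± 0.12, 36.0% overlap of exons). Gimap3 was at 491 ± 146 CPM in media and 387 ± 86.8 CPM in lactate (log2 fold change -0.34 ± 0.22 (SE), adjusted p = 0.227). Neither Gimap6 nor Gimap1 passed with the donor as a block (adjusted p = 0.0164 and 0.0124; ranges over the alternatives 0.000257 to 0.029 and 2.24e-06 to 0.0124). Of the actin genes, 4 fell with the donor as a block, 13 rose in the 8 activated libraries alone, 3 rose without lactate replicate 3 or 4 or media replicate 3, and 12 rose without naïve replicate 4. Of the S100 and galectin list, 7 rose with the donor as a block.

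Among histone acetylation genes more fell than rose. DNA methylation and Polycomb genes were called in both directions (9.38% higher and 15.6% lower, against 13.9% and 11.1% of all genes). Of histone acetyltransferases and deacetylases, 1 of 31 tested members rose and 7 fell (median log2 fold change -0.18). The class IIa deacetylase Hdac5 fell from 159.5 to 90.0 CPM (-0.83 ± 0.14) and the acetyltransferase Kat6b from 38.8 to 22.0 CPM (-0.82 ± 0.10). Hdac2, a class I deacetylase, rose from 93.7 to 135 CPM (0.53 ± 0.09). Ep300 was at 186 ± 22.2 CPM in media and 148 ± 25.1 CPM in lactate (log2 fold change -0.33 ± 0.15 (SE), adjusted p = 0.0937). In the DNA methylation and Polycomb list (3 higher and 5 lower of 32, median -0.13), the alternative catalytic subunits of a Polycomb complex were called in opposite directions: Ezh1, the form of resting cells, was at 111, 147, 110.3 and 102 CPM in media and 36.6, 45.5, 37.6 and 35.8 CPM in lactate (log2 fold change -1.60 ± 0.14 (SE), adjusted p = 4.9e-05), and Ezh2, the form of dividing cells, at 319, 334, 386 and 351 and 479, 469.9, 594 and 574 CPM (log2 fold change 0.61 ± 0.12 (SE), adjusted p = 0.00182). Neither gene overlapped. Tet2, which oxidises methylcytosine, was at 132, 219, 198 and 146 CPM in media and 62.2, 59.95, 64.4 and 63.0 CPM in lactate and fell (log2 fold change -1.48 ± 0.14 (SE), adjusted p = 5.56e-05). Of the acetylation genes, 3 to 4 fell without lactate replicate 2, 3 or 4 or media replicate 2, and 12 fell without naïve replicate 4. Of the methylation and Polycomb genes, 5 rose with the donor as a block, 8 fell in the 8 activated libraries alone, 9 fell with DESeq2, and 8 fell without naïve replicate 4.

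Of zinc finger genes named Zfp and a number, most of them DNA-binding proteins, 5 of 296 tested members rose and 49 fell (median log2 fold change -0.26), that is 1.69% against 13.9% of all genes upward and 16.6% against 11.1% downward. Zfp945 and Zfp773 fell from 11.4 to 3.16 CPM and 11.1 to 3.15 CPM (-1.85 ± 0.29 and -1.81 ± 0.34). Zfp608 rose from 24.9 to 48.6 CPM (0.96 ± 0.24). Of the Zfp genes, 9 rose with DESeq2, 13 rose in the 8 activated libraries alone, 3 rose without lactate replicate 1, 3 or 4 or media replicate 2 or 3, 8 to 12 rose without media replicate 4 or naïve replicate 4, and 25 to 28 fell without lactate replicate 3 or 4 or media replicate 2. By annotated gene type, 15.7% of 11908 protein-coding genes rose and 12.0% fell, against 3.63% and 10.9% of 248 lincRNAs (median log2 fold change -0.38).

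**Figure D4:**
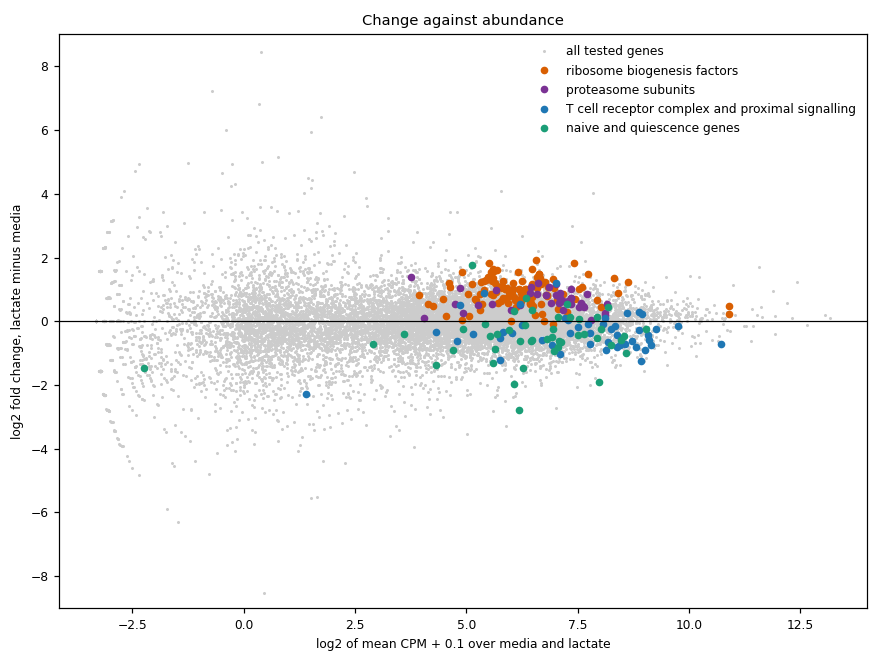
Log2 fold change of lactate against media (vertical axis) and mean abundance over the 8 activated libraries (horizontal axis, log2 of CPM + 0.1) for all tested genes (grey), with 4 lists coloured. Ribosome biogenesis factors (orange) and proteasome subunits (purple) lie mostly above 0 at medium abundance, and most T cell receptor (blue) and naïve (green) genes below 0.

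The plot of change against abundance places the growth lists at medium abundance, whereas the widest spread of fold changes was at low abundance. Of the genes that rose, 580 did so by at least 1 on the log2 scale and 37 by at least 3, and of those that fell, 667 and 51 did. Among genes with a mean of at least 5 CPM in a group, several of the 10 largest increases were in genes near 0 in media. Tph1, tryptophan hydroxylase, had 1, 1, 0 and 3 counts in the 4 media libraries and 114, 99, 139 and 96 in the 4 lactate libraries, a ratio of scaled sums of 90.0 (exact counting interval 38.3 to 279) that covers counting error only. Tnfrsf11b, the RANKL decoy receptor osteoprotegerin, had 3, 0, 1 and 2 counts in media and 83, 30, 146 and 117 in lactate with a ratio of 63.0 (exact counting interval 28.7 to 173). In both genes every lactate library was well above every media library.

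Slc13a3, a sodium-coupled dicarboxylate carrier, was at 0.277, 0.218, 0.223 and 0.1254 CPM in media and 5.02, 3.56, 7.14 and 4.38 CPM in lactate (log2 fold change 4.50 ± 0.58 (SE), adjusted p = 0.000151). Crabp2, a retinoic acid carrier, was at 0.324, 0.273, 0.167 and 0.188 and 5.02, 3.41, 8.42 and 4.58 CPM (log2 fold change 4.43 ± 0.40 (SE), adjusted p = 5.5e-05), and Il3, a cytokine of blood progenitors, at 0.462, 0.109, 0.279 and 0.251 and 7.22, 6.13, 4.81 and 2.65 CPM (log2 fold change 4.18 ± 0.62 (SE), adjusted p = 0.000323). None of the 3 overlapped. Enah, an actin regulator, rose from 0.825 to 12.4 CPM (3.88 ± 0.54), Spp1, osteopontin, from 4.64 to 50.8 CPM (3.44 ± 0.54) and Ifng, the effector cytokine, from 6.15 to 104 CPM (4.09 ± 0.84, 25.9% overlap of exons), with Lta and Tnfrsf8 described above.

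The largest decreases began with Rundc3a, a RUN domain protein, which had 113, 140, 82 and 101 counts in media and 2, 4, 2 and 1 in lactate, a ratio of media over lactate of 48.2 (exact counting interval 25.2 to 106). Among the rest were the interferon-inducible genes Gbp10, Ifi213, Ifi206 and Ifi208 (9.07 to 0.409 CPM, 6.40 to 0.293 CPM, 17.8 to 1.42 CPM and 6.25 to 0.569 CPM; -4.45 ± 1.00, -4.39 ± 0.87, -3.61 ± 0.65 and -3.38 ± 0.56). These family members resemble each other in sequence, Gbp10 shares 46.3% of its exons with another gene, and media replicate 2 was highest in all 4. Baiap3, a regulator of vesicle release, was at 37.9, 96.6, 29.5 and 74.0 CPM in media and 3.38, 7.65, 3.40 and 5.68 CPM in lactate (log2 fold change -3.55 ± 0.54 (SE), adjusted p = 0.000367), and the exchange factor Rasgef1a at 14.9, 32.1, 15.6 and 18.4 and 1.28, 2.72, 1.63 and 1.88 CPM (log2 fold change -3.42 ± 0.47 (SE), adjusted p = 0.000214). The pseudogene Gpr137b-ps fell from 6.84 to 0.681 CPM (-3.32 ± 0.48), and Cd7 and Kcna2 completed the 10. The media ranges of Baiap3 and Rasgef1a were wide, and still no lactate library reached them.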

How the data were processed

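RNA-seq was analysed for 12 libraries of mouse CD8+ T cells (4 naïve, 4 media, 4 lactate). Before the files were deposited, the authors converted base calls with bcl2fastq 2.20.0.422, aligned the reads to GRCm38 with STAR 2.7.5b, took out PCR duplicates and used featureCounts to count the reads with 1 alignment over each gene. The deposited values are therefore raw counts, and duplicate removal lowers the counts of the most abundant genes most. The strand setting is not given in the sources used here. Tool versions were taken from the submitters' processing notes where they name them. No column of values was without a sample (0 columns). The table holds 13780 genes, of which 13771 identifiers were in GENCODE M21 and 13547 had its exon length.

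Genes with at least 1 CPM in at least 3 libraries (13767) were fitted with edgeR 4.0.16 (limma 3.58.1, R 4.3.3) as quasi-likelihood models with TMM factors over all 12 libraries, and the contrast of lactate against media was called at a Benjamini-Hochberg adjusted p of at most 0.01. The procedure was tested on simulated data. Alternatives were DESeq2 1.42.0, 2 other scalings, no filter, the 8 activated libraries alone, a run term, length offsets, an adjusted p of at most 0.05, blocks by title number and by donor, and leaving out each library. The fits with a block used the 8 activated libraries and not the naïve ones.

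The gene classes were 54 lists written from general knowledge, 2 lists by symbol pattern and 6 marker lists. Members and lists were chosen with earlier results of these data known. Named genes were the 10 largest increases and decreases among called genes with a symbol, at least 5 CPM in a group and no overlap, up to 3 such genes per list, preset anchor genes of each list, and 38 genes added after their values were seen. A few of the genes chosen this way are not reported here. Overlap of exons was computed without strand from GENCODE M21.

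Donor tags in the sample descriptions, read within each run of library numbers, pair 3 media with 3 lactate libraries: media 1 with lactate 1, media 3 with lactate 2 and media 4 with lactate 4. Deviations from the group means correlated within these donor pairs at r = 0.374, 0.211 and 0.553. Libraries with different donor tags reached r = 0.371 (media 4 with lactate 3) and 0.297 (media 2 with lactate 2). These values therefore cannot establish the pairing. The donors were taken as a pairing from the tags, in an alternative fit only. That fit, with the donor as a replicate block, left out the naïve libraries. Media 2 and lactate 3 have no partner in it, so its contrast rests on the 3 pairs. It called 1941 genes higher and 1713 lower, against 2462 and 2141 in the 8 activated libraries without a block. The reported fit has no block.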

Additional observations from a re-analysis of the deposited data

Results flagged for a closer look

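Each named gene's CPM in the 4 media and in the 4 lactate libraries was searched for a library far from the other 3 of its group, measured as its gap to the nearest of them divided by the group's whole range and held against Dixon's 95% critical value for 4 samples. Of 514 groups 25 exceeded it, and chance alone gives about 1 in 20. Media replicate 2 was the library apart in 11 of them, lactate replicate 1 in 7 and lactate replicate 2 in 3. The values below give the library's CPM, the range of the other 3 and the gap as a share of the range.

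Media replicate 2 lay above the other libraries of its group for Amt (10.0 against 7.49 to 7.65 CPM, gap 0.938), Bcl2l11 (226 against 139.9 to 147 CPM, gap 0.915), Edem3 (136 against 80.7 to 88.4 CPM, gap 0.86), Ep300 (219 against 172 to 178 CPM, gap 0.875), Gbp10 (19 against 5.22 to 6.33 CPM, gap 0.92), Lgals4 (49.8 against 32.2 to 35 CPM, gap 0.839), Mxd1 (61.2 against 33.4 to 37.6 CPM, gap 0.85) and S100a6 (11.8 against 6.58 to 7.4 CPM, gap 0.844). Media replicate 2 lay below the other libraries of its group for Acsl1 (3.49 against 7.25 to 7.54 CPM, gap 0.928), Mcm3 (296 against 360.3 to 370.4 CPM, gap 0.864) and Nop56 (76.4 against 120.4 to 128 CPM, gap 0.846).

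Lactate replicate 1 lay above the other libraries of its group for Ccne1 (149.5 against 122 to 125 CPM, gap 0.876), Hspa9 (1188 against 1031 to 1051 CPM, gap 0.874) and Shmt2 (686 against 595 to 608 CPM, gap 0.861). Lactate replicate 1 lay below the other libraries of its group for Cxcr4 (12.7 against 35.7 to 38.3 CPM, gap 0.9), Rhoh (106 against 116 to 118 CPM, gap 0.862), Smpdl3a (20.4 against 25.8 to 26.3 CPM, gap 0.914) and Wipi1 (3.48 against 6.3 to 6.79 CPM, gap 0.85).

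Lactate replicate 2 lay above the other libraries of its group for Amt (5.82 against 2.31 to 2.55 CPM, gap 0.931) and Lgals4 (17.1 against 8.66 to 10.0 CPM, gap 0.838). Lactate replicate 2 lay below the other libraries of its group for Pdcd1 (33.4 against 57.7 to 62.4 CPM, gap 0.836).

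Among the remaining libraries, media replicate 3 was the lowest for Cd101 (7.92 against 11.4 to 12 CPM, gap 0.846), lactate replicate 3 was the highest for Ndufa12 (59.6 against 52.3 to 53.3 CPM, gap 0.865), media replicate 1 was the highest for Spp1 (8 against 3.34 to 3.76 CPM, gap 0.91) and media replicate 4 was the highest for Vdr (8.03 against 4.8 to 5.32 CPM, gap 0.84). Genes apart in both groups were Amt and Lgals4, each highest in replicate 2 of its group. No cause of these gaps was tested.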

How the results depend on the processing

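The 1917 genes that rose and 1534 that fell (3451 in all, and 6639 with an unadjusted p of 0.05 or less) became 2244 and 2307 with DESeq2, 1741 and 1689 with its size factors in edgeR, and 1702 and 1728 with total counts alone. They were 1917 and 1535 without the filter, 1859 and 1222 with gene length offsets, 1977 and 1595 with a run term, 2462 and 2141 in the 8 activated libraries alone, and 2857 and 2604 (5461 in all) with the adjusted p threshold at 0.05. The donor block gave 1941 and 1713, of which 2831 were called in the reported fit, and the title number block 2761 and 2523 (5284 in all). Same-numbered libraries correlated at r = 0.374, 0.297, 0.0038 and 0.553 across genes. The title numbers were not taken as a pairing, because media 2 and lactate 2, and media 3 and lactate 3, bear different donor tags. Leaving out each library gave 2252 to 4845 called genes and 914 to 2293 lower, the lowest without media replicate 2 and the highest without naïve replicate 4. Genes that rose were 55.5% of those called, 50.8% with DESeq2's size factors, 49.6% with total counts and 60.3% with length offsets, and these scalings moved the median of all tested genes by less than 0.1 on the log2 scale.

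Of the 257 named genes 199 passed the test, and 151 of them passed in all 22 alternatives. Leaving out 1 library lost 0 to 38 of them, most without media replicate 2, and DESeq2, the fit without the filter and the title number block lost 0. The donor block lost 8 (Amt, Bub3, Foxo1, Gimap1, Gimap6, Mcm3, Mga and Slc25a5) and added 21. The named genes that lost the call in at least 1 alternative, with the highest adjusted p over the alternatives, were Acot7 (0.0227), Acsl1 (0.0136), Acss2 (0.0193), Amt (0.0153), Bbc3 (0.0315), Bcl2l1 (0.0244), Bmf (0.0143), Bub3 (0.0128), Cad (0.0118), Capg (0.0175), Cat (0.0139), Cblb (0.0259), Ccr7 (0.0243), Cd3g (0.0306), Cenpa (0.0199), Cox20 (0.0126), Cth (0.0292), Fosl1 (0.0331), Foxo1 (0.103), Gbp10 (0.0139), Gimap1 (0.0124), Gimap6 (0.029), Havcr2 (0.011), Hmgcs1 (0.0185), Hspa5 (0.0147), Igfbp4 (0.0302), Insig1 (0.0192), Klrc1 (0.0308), Klri2 (0.0156), Ltbp3 (0.0133), Mcm3 (0.0429), Mga (0.0275), Npc1 (0.0519), Phgdh (0.0103), Ptprc (0.012), Rbl1 (0.014), Rhoh (0.0809), Scap (0.0137), Scd2 (0.0296), Sf3b1 (0.0112), Slc25a5 (0.032), Slc4a8 (0.0135), Socs1 (0.0158), Taldo1 (0.0116), Tsc22d3 (0.0175), Txk (0.0132), Wipi1 (0.0229) and Zfp608 (0.03).

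No named gene with a call changed sign under these alternatives. Among genes without one, the log2 fold change turned sign for Cpt1a 0.11 with gene length offsets, Gclm 0.029 with gene length offsets, Nfat5 -0.036 with the donor as a replicate block, Pdcd1 -0.011 with the donor as a replicate block and Tfrc -0.0072 with total counts alone, and over the left-out libraries it ranged for Cpt1a -0.11 to 0.0010, Fth1 -0.023 to 0.11, Gas5 -0.0076 to 0.15, Nfat5 -0.039 to 0.29 and Tfrc -0.073 to 0.16.

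Values here are list medians of the log2 fold change. In the 8 activated libraries alone, the list medians that moved were 0.036 for sodium and pH transporters, 0.27 for NRF2 genes, 0.25 for G1 genes, 0.26 for homing genes and -0.40 for NK-type receptors. The others were -0.033 for interleukin receptors. With DESeq2, the list medians that moved were 0.31 for splicing factors and -0.0047 for interleukin receptors. With DESeq2's size factors, the list medians that moved were 0.31 for splicing factors and -0.0043 for interleukin receptors. With gene length offsets, the list medians that moved were 0.11 for fatty acid oxidation, 0.30 for hyperosmotic genes, 0.26 for NRF2 genes, -0.083 for metal genes and -0.013 for Polycomb and methylation genes. The others were 0.12 for integrin subunits, -0.22 for nuclear receptors and 0.10 for actin and cell motility genes. With a term for the library run, the list medians that moved were -0.50 for the MYC network, 0.13 for sodium and pH transporters, -0.12 for metal genes, 0.31 for splicing factors and -0.31 for inhibitory receptors. The others were 0.36 for NK-type receptors and -0.41 for nuclear receptors. With the donor as a replicate block, the list medians that moved were 0.34 for complexes III to V, 0.49 for mitochondrial ribosomal proteins, 0.035 for sodium and pH transporters, 0.058 for ER chaperones and 0.20 for NRF2 genes. The others were 0.24 for iron genes, 0.27 for G1 genes, 0.014 for Polycomb and methylation genes, 0.23 for homing genes, -0.052 for integrin subunits, -0.47 for NK-type receptors, -0.0093 for interleukin receptors and -0.15 for GIMAP GTPases. With the title number as a replicate block, the list medians that moved were 0.035 for sodium and pH transporters, 0.26 for NRF2 genes, 0.24 for G1 genes, 0.26 for homing genes and -0.43 for NK-type receptors. The others were -0.035 for interleukin receptors and -0.24 for nuclear receptors. With total counts alone, the list medians that moved were 0.066 for ER chaperones, 0.30 for splicing factors, -0.014 for interleukin receptors and 0.017 for lysosome and V-ATPase. Leaving out each library in turn gave medians of -0.11 to 0.0068 for BCL2 family and death genes, 0.067 to 0.17 for ER chaperones, -0.50 to -0.34 for the MYC network, 0 to 0.48 for NK-type receptors, 0.20 to 0.36 for NRF2 genes and -0.27 to 0.036 for homing genes. They were 0.36 to 0.49 for complexes III to V, 0.068 to 0.38 for costimulatory genes, 0.011 to 0.17 for hyperosmotic genes, -0.47 to -0.30 for inhibitory receptors, -0.25 to 0.059 for integrin subunits, -0.082 to 0.026 for interleukin receptors and 0.27 to 0.40 for iron genes. For the remaining lists they were 0.015 to 0.079 for lysosome and V-ATPase, -0.079 to 0.030 for metal genes, 0.18 to 0.28 for mitochondrial SLC25 carriers, -0.40 to -0.20 for nuclear receptors, -0.069 to 0.079 for sodium and pH transporters and 0.31 to 0.36 for splicing factors. No other list median moved by more than the spread between replicates, and the cause of these shifts was not tested.

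Depth limits genes near the filter, and the number of libraries limits small differences. A sodium salt other than lactate, surface protein, translation and metabolites were not analysed here.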
